A study of Mus musculus with 6 samples.

Results

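The Notch group comprised 10 genes, namely the receptors Notch1, Notch2, Notch3 and Notch4, the ligands Jag1, Jag2 and Dll1, and the target genes Hes1, Hey1 and Heyl. They were chosen by gene name, and all 10 were found among the 54532 genes of the deposited table. The cells were immortalized cardiosphere-derived cells (iCDCs in the labels, iECDCs in the paper) of C57BL/6 mice, labelled as heart ventricle, and every library came from passage 30. Per the study's methods, the cells grew out of epicardium pieces of adult hearts and carried human telomerase (hTERT), delivered by a lentivirus from a CMV promoter and kept by puromycin selection, in control and induced cells alike. The 3 control libraries came from iCDCs without drug. The 3 induced libraries came from iCDCs given 10 µM of 5-azacytidine (5-aza), a cytidine analogue that blocks DNA methylation and was given here to drive the cells towards cardiomyocytes, for 3 days, followed per the labels by 4 weeks in IMDM medium with 2% serum. The study's methods describe a cardiac induction for staining with another medium and a shorter later culture. No control group is described as kept in low serum without the drug, so drug, serum and time cannot be told apart. The labels call the libraries separate samples without naming separate cultures. The study's methods state fewer biological replicates per condition than the libraries deposited, while its figure legend for this comparison gives n = 3. The p-values and every n = 3 given below therefore refer to the spread between these libraries, which may be technical.

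Notch receptors are membrane proteins that are activated by ligands of the Jagged and Delta families on a neighbouring cell. Ligand binding exposes the receptor to an ADAM protease and then to gamma-secretase, which releases the intracellular domain to join the DNA-binding protein RBPJ and Mastermind coactivators in the nucleus. Some Hes and Hey genes, which encode bHLH repressors, are the classical targets of this complex. In the heart the pathway acts in epicardial cells, vascular smooth muscle and valve formation.

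Induced cells carried more RNA of the ligands and of Hes1, and the same 4 receptors in other proportions. Jag1, Jag2 and Hes1 rose 3.08- to 6.52-fold, Dll1 rose 1.81-fold from few reads, Notch2 rose 1.35-fold, and Notch1, Notch3 and Notch4 fell. By edgeR's quasi-likelihood test, 8 of the 10 genes had enough reads to be tested and 8 were past a Benjamini-Hochberg adjusted p of 0.05, 5 higher and 3 lower. Over the whole table, 64.8% of 14246 tested genes were past that threshold, 32.6% upward and 32.2% downward. Among the 8, 4 were called with a fold change of 2 or more, 3 upward and 1 downward, and 17.1% of all genes tested met that rule, 9.29% upward and 7.83% downward. Jag2, among the 3 upward, passed the filter only through its induced libraries, where it was high. The median log2 fold change was 0.64 over the 8 genes and -0.01 over all genes tested. Libraries of the groups did not overlap for any of the 8, which was also true of 68.6% of all genes tested. In bulk RNA, a lower share of cells with a transcript and less of it per cell cannot be told apart.

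The libraries held 19041133 to 19823369 reads, and 3 reads, taken as the limit that a count of 0 allows, correspond to 0.151 to 0.158 CPM (reads scaled to the library total). Of the surface markers of cardiosphere-derived cells, Thy1 rose, Ly6a fell and Eng rose by 0.12 on the log2 scale (adjusted p 0.0190 by edgeR, 0.0846 with library totals alone and not past 0.05 without any 1 control library or induced replicate 1), and their summed level was 502.6 to 507.2 CPM in control and 562.6 to 594.7 CPM in induced libraries. Of 6 leukocyte markers, 5 (Ptprc, Itgam, Tyrobp, Cd52 and Cd3e) had 0 reads in every library. Of 6 cardiomyocyte markers, 5 were not tested. Ryr2 had 0, 0 and 1 reads in control and 9, 10 and 10 in induced libraries (ratio of pooled reads 30.2, 95% exact binomial interval 5.01 to 1235), Actn2 had 0 control reads and 8 induced reads, all in replicate 2, Nppa had 0 and 4, Myh7 3 and 4, and Myh6 0 and 1. Tnni3, the 1 marker tested, was at 1.52 ± 0.0910 CPM in control and 2.02 ± 0.207 CPM in induced libraries (adjusted p 0.144 by edgeR, past 0.05 in both limma fits at 0.0186 and 0.0267).

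Sequences upstream of the genes are shown because 5-aza blocks the enzymes that methylate CG pairs, although methylation itself was not measured here. RefSeq promoter windows (build GRCm38.p6) were matched for 7 of the 10 genes, and Hes1, Hey1 and Heyl had none. For 6 of the 8 windows, the bases after the RefSeq start were found in a GENCODE M21 transcript of the gene. In the 250 bases before the RefSeq start, the upstream CG count was 54 for Jag2, 34 for Notch2, 20 for Jag1, 17 for Notch3, 16 for Notch1 and 4 for Notch4, and the 2 starts of Dll1 had 21 and 13. Over 32851 windows the median was 6, with quartiles of 2 and 16. The Jag2 window, which lies within the deposited gene, held more CG pairs than 99.98% of windows, and that of Notch4 more than 37.77%. The Notch1 window and the Dll1 window with 21 CG pairs also lie within the deposited gene, not upstream of it. The windows of Notch2, which rose, and of Notch3 and Notch4, which fell, are printed with that of the ligand Jag1, in lower case with each CG in capitals and only as far as the deposited gene's start.
Jag1 (chr2:137116645-137116770, minus strand): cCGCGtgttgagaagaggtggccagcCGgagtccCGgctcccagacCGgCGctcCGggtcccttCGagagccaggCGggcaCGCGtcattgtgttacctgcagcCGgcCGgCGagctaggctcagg
Notch2 (chr3:98013288-98013526, plus strand): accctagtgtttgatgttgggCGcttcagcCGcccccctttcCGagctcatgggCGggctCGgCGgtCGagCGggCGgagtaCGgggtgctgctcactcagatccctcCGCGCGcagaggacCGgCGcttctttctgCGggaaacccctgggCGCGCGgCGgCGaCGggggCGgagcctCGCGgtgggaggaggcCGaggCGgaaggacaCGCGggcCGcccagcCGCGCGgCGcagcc
Notch3 (chr17:32166891-32167140, minus strand): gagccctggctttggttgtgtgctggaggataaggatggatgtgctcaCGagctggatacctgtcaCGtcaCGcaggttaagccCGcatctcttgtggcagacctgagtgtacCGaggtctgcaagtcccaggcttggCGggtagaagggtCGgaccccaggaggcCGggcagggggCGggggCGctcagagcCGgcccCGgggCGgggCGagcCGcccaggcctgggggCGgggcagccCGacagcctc
Notch4 (chr17:34564045-34564267, plus strand): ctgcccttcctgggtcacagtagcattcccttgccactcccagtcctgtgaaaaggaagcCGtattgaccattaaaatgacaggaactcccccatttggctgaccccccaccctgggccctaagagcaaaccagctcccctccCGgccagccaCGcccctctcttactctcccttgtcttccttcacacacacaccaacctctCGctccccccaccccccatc
The printed stretches hold 14 CG pairs in 126 bases for Jag1, 34 in 239 bases for Notch2, 17 in 250 bases for Notch3 and 4 in 223 bases for Notch4. The core of the RBPJ motif, TGGGAA on either strand, was in 0 of the 8 windows of the group and in 21.6% of all windows. The N box CACNAG, a motif bound by Hes proteins, was in 3 of the 8 (Notch1, Notch2 and Notch3) and in 36.7% of all windows, counted on either strand.

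**Figure D1:**
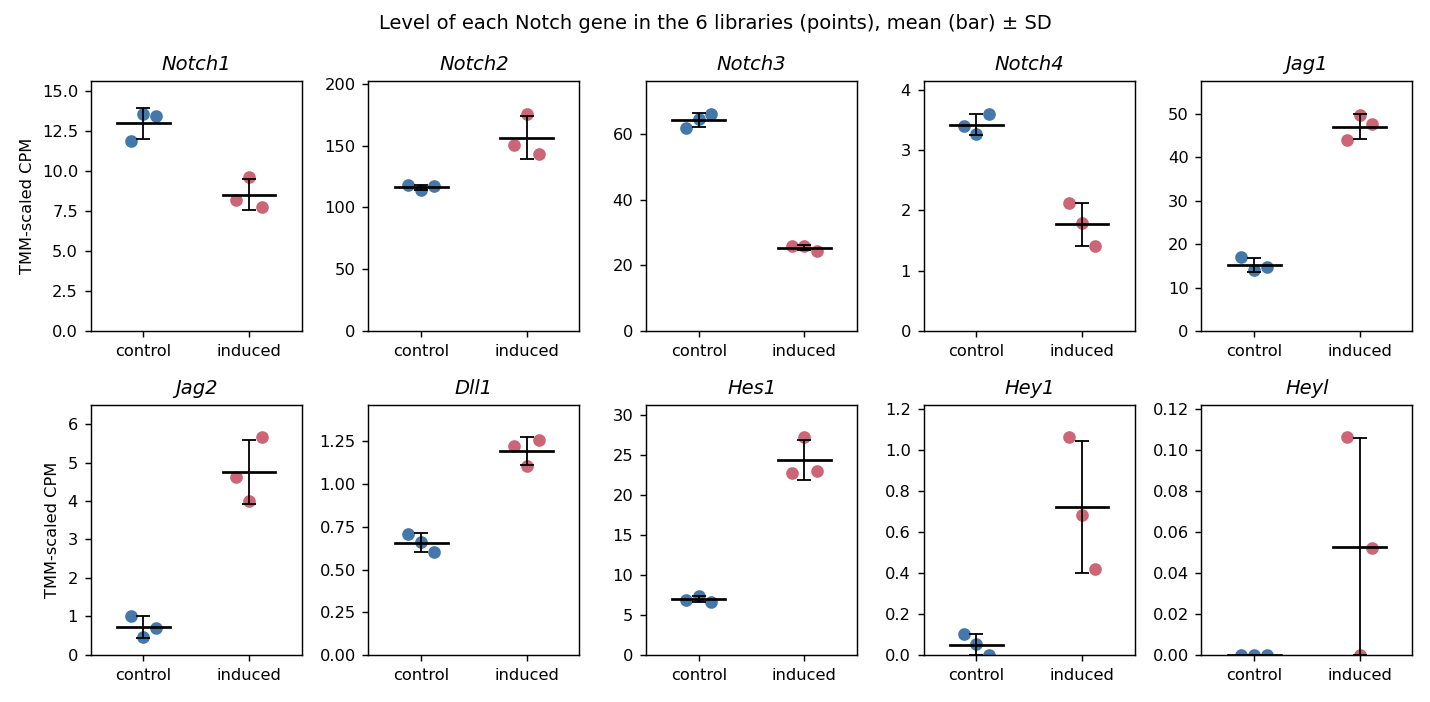
Each panel plots 1 Notch gene, with the TMM-scaled CPM of the 3 control and the 3 induced libraries as points, the mean as a bar and the SD as an error bar, on linear axes that start at 0 and differ between panels. Control and induced libraries do not overlap except for Heyl, which had 0 to 2 reads per library.

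The receptors were examined first. Notch2 (ENSMUSG00000027878, mm10 chromosome 3, 98013527 to 98150361, plus strand), a receptor with wide expression in mesenchymal cells, had 2331, 2236 and 2338 reads in control and 2827, 3346 and 2737 in induced libraries. Every induced library was above every control library, with induced replicate 2 the highest. Scaled by TMM, which corrects for library size and composition, its level rose from 116.3 ± 2.18 to 156.4 ± 17.1 CPM (mean ± SD, n = 3 per group), with a log2 fold change of 0.43 ± 0.06 (SE; adjusted p 1.20e-05 by edgeR). Read counting alone gives a coefficient of variation of 1.83% in the induced libraries, less than their spread.

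Notch3 (ENSMUSG00000038146, chromosome 17, 32120820 to 32166880, minus strand), the receptor best known from vascular smooth muscle and pericytes, was the member with the largest fall. It had 1221, 1267 and 1321 reads in control and 486, 490 and 467 in induced libraries, which were tightly grouped on both sides. Its level fell from 64.1 ± 2.17 to 25.3 ± 0.765 CPM (mean ± SD, n = 3 per group), with a log2 fold change of -1.34 ± 0.06 (SE; adjusted p 4.63e-13 by edgeR), so that control cells had 2.53 times as much. Markers of mural cells moved in both directions. Of 7 such markers, 5 were tested, of which Abcc9, Kcnj8, Mcam and Cnn1 fell and Myh11 rose from 1.01 to 7.04 CPM. Over all genes tested, 32.2% fell and 32.6% rose. Abcc9 passed the filter only through its control libraries, where it was high. Rgs5 (2 control and 8 induced reads) and Cspg4 (5 and 26 reads, higher in every induced library) were not tested. The fall of Mcam was not past 0.05 without control replicate 2 or induced replicate 1 or 3 (adjusted p by edgeR up to 0.0908). None was at 0 in all libraries, and their sum was 27.5 to 34.7 CPM in control and 12.6 to 14.9 CPM in induced libraries. Their part in the fall of Notch3 was not tested.

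Notch1 and Notch4 were lower at small read numbers. Notch1 (ENSMUSG00000026923, chromosome 2, 26457903 to 26516663, minus strand), a receptor of endothelial and many progenitor cells, had 235, 267 and 269 reads in control and 155, 183 and 148 in induced libraries (log2 fold change -0.61 ± 0.11 SE, adjusted p 0.000131 by edgeR). Notch4 (ENSMUSG00000015468, chromosome 17, 34564268 to 34588503, plus strand), a mainly endothelial receptor, had 67, 64 and 72 reads in control and 40, 34 and 27 in induced libraries (log2 fold change -0.94 ± 0.22 SE, adjusted p 0.000883 by edgeR). Both falls left the groups apart. On the CPM scale, Notch1 fell from 13.0 ± 0.944 to 8.53 ± 0.969 and Notch4 from 3.42 ± 0.174 to 1.77 ± 0.355 (SD, n = 3). Of 11 endothelial markers, 1 fell, 1 was not called and 9 were not tested, where 32.2% of all genes tested fell. Tie1, Cldn5 and Sox17 had 0 reads in every library, and the others not tested had few. Tek summed to 7 control and 32 induced reads and Erg to 15 and 0, each without overlap between the groups. Of all genes tested, 68.6% were likewise without overlap. Pecam1 summed to 3 and 6, Kdr to 11 and 5, Cdh5 to 1 and 1 and Emcn to 1 and 0, and Vwf was not called. The endothelial sum of 88.1 to 93.8 CPM in control and 47.3 to 50.4 CPM in induced libraries was mostly Flt1, which fell from 89.6 to 47.0 CPM, and the part of such cells in the receptor values was not tested.

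Some receptor reads could belong to overlapping genes, since the strand setting of the counting is not given in the sources used here. In GENCODE M21, 9.76% of the exon bases of Notch1 overlap other genes, 6.03% of those of Notch3 overlap Gm17276 on the opposite strand, and 5.02% of those of Notch2 overlap Gm42820 on the same strand. The overlapping genes had few reads of their own, with 0610009E02Rik at 35 in control and 33 in induced cells and the others at 0 to 7 reads per group. Notch4, Jag1, Jag2, Hes1, Hey1 and Heyl overlap no other annotated exon.

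Levels of different genes were compared per length, with the FPKM deposited by the authors (fragments scaled to gene length and library size). The 4 receptors summed to 19.9 ± 0.351 FPKM in control and 18.5 ± 1.70 FPKM in induced cells (SD, n = 3), and the libraries of the groups overlapped. Within that sum, the share of Notch2 was 55.0%, 53.0% and 53.0% in control and 77.5%, 79.9% and 78.0% in induced libraries, a difference of 24.8 percentage points. Notch3 took the opposite course, from 39.7% ± 0.895 to 17.1% ± 1.24 (SD, n = 3). Notch1 went from 4.54% to 3.24% and Notch4 from 2.11% to 1.19%. All 4 shares were apart between the groups, each with an exact two-sided permutation p of 0.1 over libraries, the smallest that 3 against 3 can give (0.117 adjusted over 7 shares of receptors and ligands), so the design cannot reach 0.05.

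**Figure D2:**
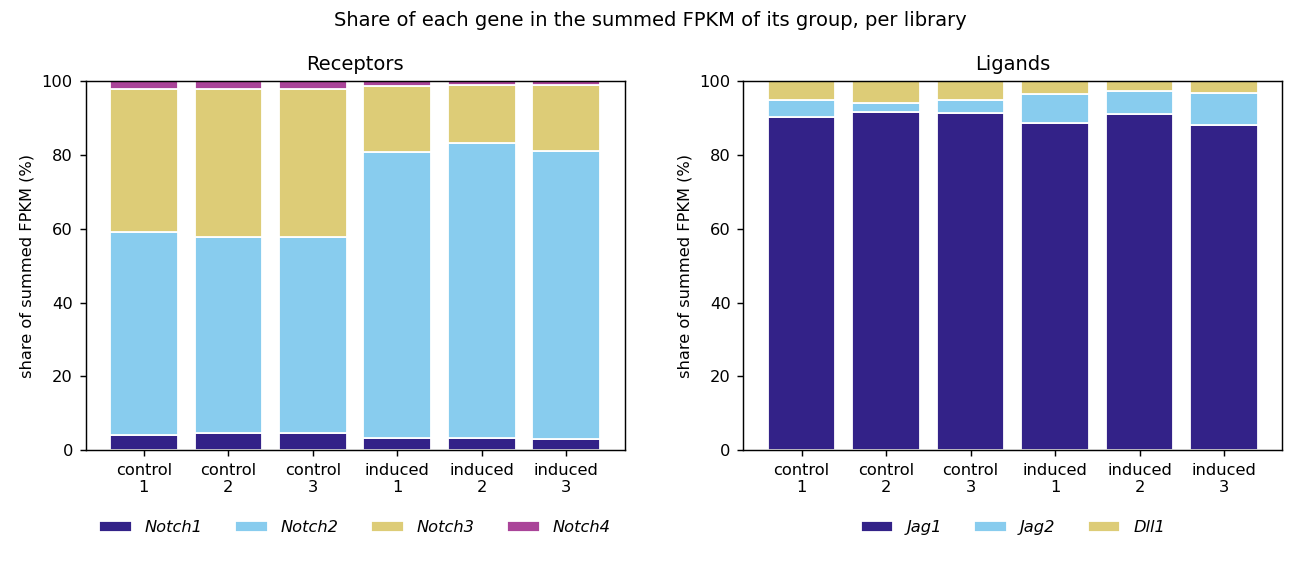
Stacked bars plot, for each of the 6 libraries, the percentage of the summed FPKM taken by each receptor (left) and each ligand (right). Notch2 takes 53.0% to 55.0% of receptor FPKM in control and 77.5% to 79.9% in induced libraries, while Jag1 takes most of the ligand FPKM in every library.

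The ligands were examined next. Jag1 (ENSMUSG00000027276, chromosome 2, 137081456 to 137116644, minus strand), a Jagged ligand needed for smooth muscle investment of vessels, was the most abundant of them. It had 336, 275 and 294 reads in control and 826, 946 and 907 in induced libraries, every induced library being well above every control library. Its level rose from 15.2 ± 1.57 to 47.0 ± 2.95 CPM (mean ± SD, n = 3 per group), with a log2 fold change of 1.62 ± 0.08 (SE; adjusted p 3.41e-12 by edgeR), a 3.08-fold rise.

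Jag2 (ENSMUSG00000002799, chromosome 12, 112907819 to 112929776, minus strand), the second Jagged ligand, was scarce in control cells and had the largest tested fold change of the group. It had 20, 9 and 14 reads in control and 87, 76 and 108 in induced libraries, without overlap. Its level rose from 0.724 ± 0.278 to 4.76 ± 0.839 CPM (mean ± SD, n = 3 per group), with a log2 fold change of 2.70 ± 0.27 (SE; adjusted p 5.99e-08 by edgeR), a 6.52-fold rise. Control replicate 2 was under the minimum of 10 reads, so the gene passed the filter through its induced libraries.

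Dll1 (ENSMUSG00000014773, chromosome 17, 15367354 to 15376872, minus strand), a Delta ligand, was near the lower end of what could be tested. It had 14, 13 and 12 reads in control and 23, 21 and 24 in induced libraries, without overlap between the groups (log2 fold change 0.86 ± 0.32 SE, adjusted p 0.0253 by edgeR). The call was lost in DESeq2 (adjusted p 0.0743), without a filter (0.0543) and on leaving out any 1 library other than induced replicate 2, and its adjusted p ranged from 0.00797 to 0.0833 over all alternatives. Of its exon bases, 20.5% overlap A930024N18Rik on the opposite strand, itself at 3 control and 7 induced reads in all.

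Per length, the 3 ligands summed to 2.85 ± 0.316 FPKM in control and 9.03 ± 0.475 FPKM in induced cells (SD, n = 3), and the groups were apart. Jag1 made up 91.0% ± 0.632 of this sum in control and 89.3% ± 1.60 in induced libraries (exact two-sided permutation p 0.2), so its share did not separate the groups. The share of Jag2 went from 3.55% ± 0.999 to 7.57% ± 1.34 and that of Dll1 from 5.44% ± 0.466 to 3.14% ± 0.317, each without overlap and with an exact permutation p of 0.1 (0.117 adjusted).

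The targets were then examined. Hes1 (ENSMUSG00000022528, chromosome 16, 30064384 to 30067796, plus strand), a bHLH repressor that answers Notch and also other signals, had 135, 144 and 132 reads in control and 429, 517 and 439 in induced libraries. Every induced library was well above every control library. Its level rose from 6.92 ± 0.371 to 24.3 ± 2.48 CPM (mean ± SD, n = 3 per group), with a log2 fold change of 1.81 ± 0.10 (SE; adjusted p 2.21e-11 by edgeR), a 3.51-fold rise.

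Hey1 (ENSMUSG00000040289, chromosome 3, 8663359 to 8667256, minus strand), a Hairy-related repressor of developing vessels and heart, did not pass the filter on low counts. It had 2, 1 and 0 reads in control and 20, 13 and 8 in induced libraries, and the groups were apart. The ratio of pooled reads was 14.2 with a 95% exact binomial interval of 4.54 to 71.9, which covers counting error only. In edgeR without a filter, where 38.0% of 25705 genes were past the threshold, its adjusted p was 5.20e-06. Heyl (ENSMUSG00000032744, chromosome 4, 123233556 to 123249875, plus strand), a Hairy-related gene known from smooth muscle, had 0 reads in the 3 control libraries and 2, 0 and 1 in the induced ones. A difference in Heyl was not detectable at this depth (edgeR without a filter, adjusted p 0.256).

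**Figure D3:**
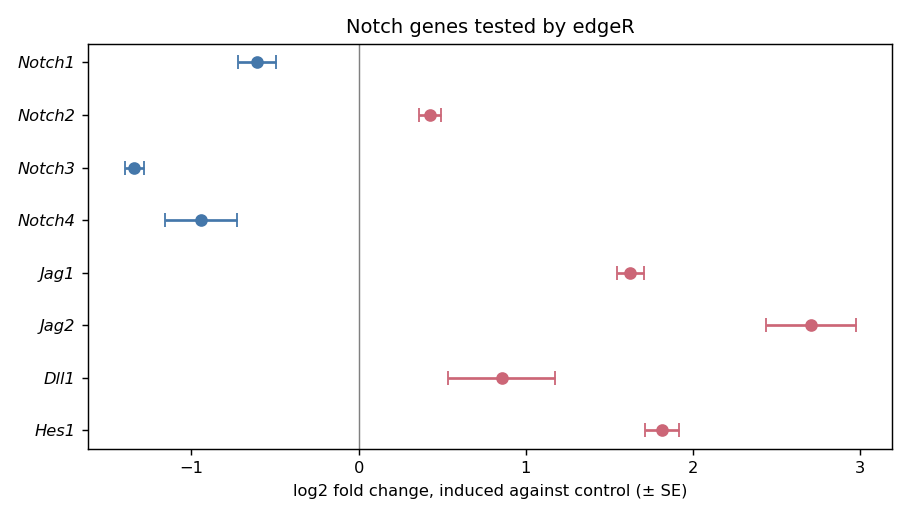
Points plot the edgeR log2 fold change of induced against control cells, with the SE as error bars, for the 8 Notch genes tested. Notch1, Notch3 and Notch4 lie below 0, from -1.34 to -0.61, and the other 5 above it, from 0.43 for Notch2 to 2.70 for Jag2.

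The order of the genes by FPKM changed between the groups. In control cells it ran from Notch2 (10.7 ± 0.218 FPKM, SD, n = 3) through Notch3 (7.91 ± 0.273), Hes1 (3.37 ± 0.173), Jag1 (2.59 ± 0.269), Notch1 (0.905 ± 0.0655) and Notch4 (0.420 ± 0.0223) to Dll1, Jag2, Hey1 and Heyl, all under 0.2 FPKM. Neighbours in this order were apart in their library values, except Dll1 with Jag2 and Hey1 with Heyl. In induced cells Notch2 (14.5 ± 1.57 FPKM) and Hes1 (11.9 ± 1.20) led and overlapped, followed by Jag1 (8.06 ± 0.496) and Notch3 (3.15 ± 0.0933). Jag2 (0.682 ± 0.121) then overlapped with Notch1 (0.599 ± 0.0671), and Dll1, Hey1 and Notch4 overlapped in turn at 0.220 to 0.283 FPKM, above Heyl. Among the 14246 genes tested, the mean FPKM of Hes1 exceeded that of 40.7% in control and 70.6% in induced cells, and that of Jag1 exceeded 35.4% and 61.2%. Notch3 went the other way, from 61.3% to 39.3%.

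**Figure D4:**
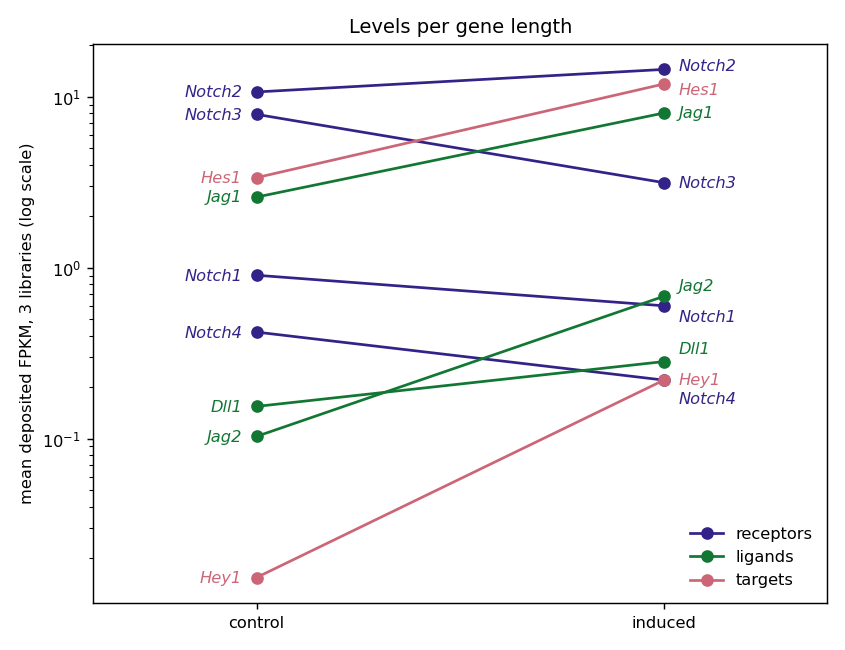
Lines connect the mean deposited FPKM of each Notch gene over 3 control libraries (left) with that over 3 induced libraries (right), on a log axis, coloured by role; Heyl is left out because it had 0 reads in control cells. Hes1 and Jag1 end above Notch3, which lay above them in control cells.

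The rest of the pathway was described with a list of 74 further genes in 11 roles, of which 62 were tested, 48 (77.4% of those tested) were called, 19 higher and 29 lower, and 14 were not called. Over all genes tested 64.8% were called, 32.6% higher and 32.2% lower, against which the counts by role are to be read. Their median log2 fold change was -0.09. The secreted and non-canonical ligands, which lack the usual receptor-binding domain or bind outside it, held the largest falls. Of 6 tested, 5 fell and 1 rose. Dlk1, a Delta-like protein of progenitor cells, had 59, 45 and 57 reads in control and 1, 1 and 3 in induced libraries (log2 fold change -4.85 ± 0.43 SE, adjusted p 1.37e-08 by edgeR). Its relative Dlk2, named after its values were seen, fell from 4.41 ± 0.295 to 0.263 ± 0.181 CPM (SD, n = 3). Dlk1 and Dlk2, both among the 5 that fell, passed the filter only through their control libraries, where they were high. Their calls after that filter therefore add no support. Without a filter their adjusted p was 1.80e-26 and 8.69e-37 by edgeR. Egfl7, a secreted EGF-repeat protein, rose by 0.37 on the log2 scale. The canonical ligands Dll3 and Dll4 were not tested, with 5 and 0 reads in control and 5 and 4 in induced cells.

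Among genes that modify or cut the receptor, changes were mostly small. Of 6 tested glycosylation genes, 2 rose and 3 fell. Lfng, a Fringe enzyme that changes which ligands a receptor answers to, fell from 8.20 ± 1.14 to 3.04 ± 1.31 CPM (mean ± SD, n = 3 per group), with an adjusted p of 1.05e-05 by edgeR, and Poglut1 rose by 0.25 on the log2 scale. Of 3 genes for furin and ADAM proteases, Adam10 had a log2 fold change of -0.15 (edgeR adjusted p 0.0220, range over its alternatives 0.000115 to 0.132, and not past 0.05 in either limma fit or without control replicate 1 or 2 or induced replicate 1 or 3) and the others were not called. Of 7 gamma-secretase genes, 4 rose and 2 fell, the extremes being Aph1c (log2 fold change 0.70) and Aph1a (-0.18). Aph1c has a close copy in Aph1b, and the split of reads between them is uncertain. Of 4 ubiquitin ligases that act on ligands, Mib1 rose by 0.32 and Neurl1a had a log2 fold change of -0.70, and of the other pair 1 rose and 1 fell.

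In the nucleus the picture was mixed. Of 9 tested genes of the activating complex, 2 rose and 3 fell, with Maml2 rising from 35.8 ± 2.91 to 55.2 ± 6.22 CPM and Maml3, another Mastermind coactivator, falling from 17.4 ± 0.175 to 8.46 ± 1.30 CPM (SD, n = 3; edgeR adjusted p 1.01e-06 and 1.38e-07). Rbpj itself, named after its values were seen, fell from 127.2 ± 3.78 to 99.9 ± 9.01 CPM. Of 12 corepressors, 3 rose and 4 fell, and the Groucho-family genes Tle4 and Tle2 had log2 fold changes of 1.18 and -0.87. Of 7 tested genes of receptor turnover and inhibition, 4 rose and 2 fell, led by the Deltex genes Dtx2 (log2 fold change 0.44) and Dtx4 (-0.52).

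Of the other Hes and Hey genes 1 of 6 was tested, Hes6, which rose by 0.39 on the log2 scale. Whether Hes6 answers Notch in these cells was not tested. The remaining Hes and Hey genes had few reads. Hey2 had 2 in control and 13 in induced cells (ratio of pooled reads 6.77, 95% exact binomial interval 1.53 to 61.8). Hes7 had 8 and 15, Hes2 1 and 3, Hes3 0 and 2, and Hes5 0 in every library. The feedback inhibitors Nrarp (5 and 6 reads) and Dtx1 (14 and 27 reads) were also not tested, nor were Mfng (0 reads), Dner (1 and 4 reads) and Rbpjl (11 and 6 reads). All 7 of the wider genes reported as targets in other cells (Myc, Ccnd1, Snai1, Snai2, Sox9, Efnb2 and Pdgfrb) fell, from -0.27 to -2.24 on the log2 scale, where 32.2% of all genes tested fell. The groups overlapped for Snai2, whose adjusted p was 0.0275 by edgeR and 0.0534 by DESeq2 and reached 0.136 on leaving out 1 library (not past 0.05 without control replicate 1 or 3 or induced replicate 1 or 3). Sox9, a transcription factor of cartilage and valve cells, fell most, with 338, 332 and 323 reads in control and 63, 87 and 52 in induced libraries (edgeR adjusted p 1.22e-10).

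**Figure D5:**
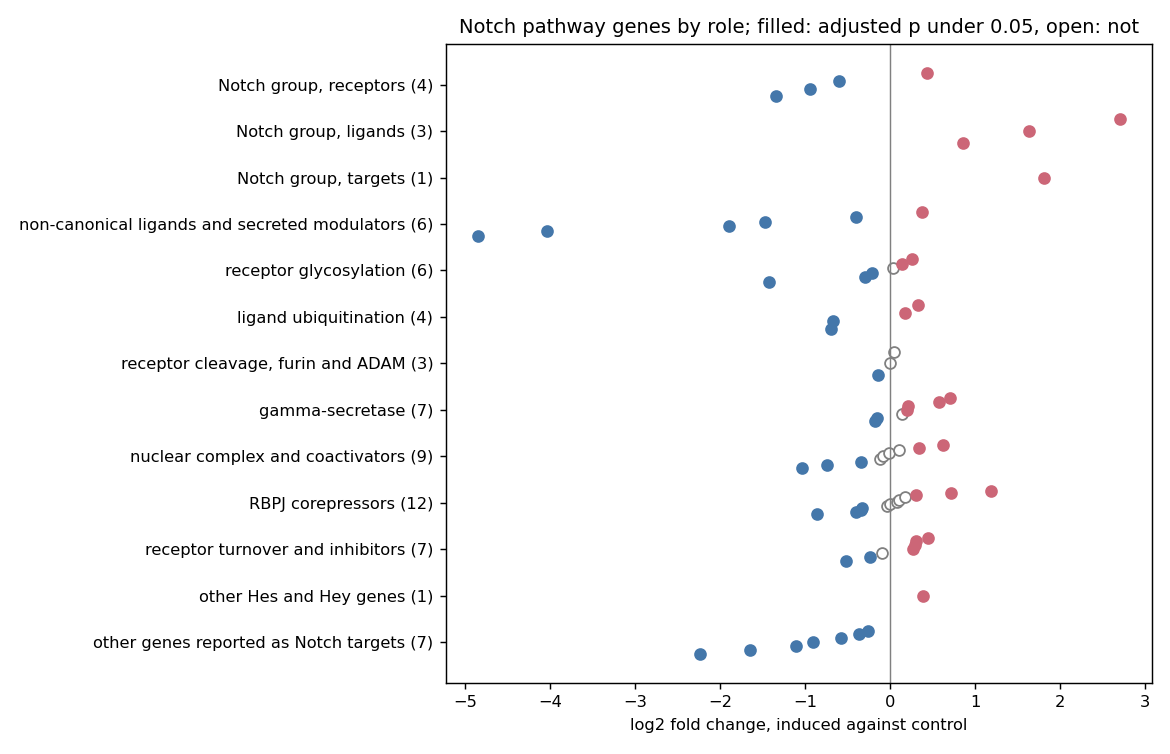
Each point plots the log2 fold change of 1 tested pathway gene, in rows by role with the number of genes tested, filled where the edgeR adjusted p was under 0.05 and open where it was not. The row of the Notch group's ligands lies above 0 and the row of other reported targets lies below it. Dlk1, in the row of non-canonical ligands and secreted modulators, is the leftmost point at -4.85.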

How the data were processed

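RNA of 3 control and 3 induced iCDC samples was sequenced after library preparation with a NEBNext Ultra kit. The authors deposited raw read counts per gene and library and FPKM values, with gene length in bases. The submitters' processing notes name HISAT2 2.0.5, featureCounts 1.5.0-p3, DESeq2 1.16.1 and build mm10, without giving their roles, and strand and annotation are not given in the sources used here. Columns of the authors' own fold changes and p-values and their Gene Ontology tables were not used.

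The whole count table was fitted with edgeR 4.0.16 (R 4.3.3). The filter filterByExpr required a count of 10 and a total of 15, libraries were scaled by TMM, and p-values from the quasi-likelihood test (two-sided) were adjusted by Benjamini-Hochberg over 14246 genes. Levels are TMM-scaled CPM. The SE is the fold change divided by the root of its F statistic. Shares were computed from the deposited FPKM and compared by exact permutation over libraries. Total counts were 19041133 to 19823369. Every pair of replicates differed by more than sampling noise (2.56 to 8.91 chi-square units for each degree of freedom), and none was merged.

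Named pathway genes are, per role, the called gene with the largest rise and with the largest fall, and those not tested. The genes, lists and alternatives were chosen with earlier results of these data known. Alternatives were DESeq2 1.42.0, other scalings and filters, limma 3.58.1 on log2 FPKM with a pseudocount of 1 or 0.1, leaving out each library in turn, a stricter threshold (adjusted p 0.01) and the replicate number as a block. The tests were run on simulated counts in which few genes changed, all of them with more reads than Dll1. That check does not cover genes with few reads or a table in which most genes change.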

Additional observations from a re-analysis of the deposited data

How the results depend on the processing

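Notch1, Notch2, Notch3, Notch4, Jag1, Jag2 and Hes1 kept their direction and stayed past the threshold under every alternative run. Jag2 passed the reported filter only through its induced libraries, where it was high, so its calls with that filter on all 6 libraries add no support. Without a filter its adjusted p was 4.00e-27 by edgeR. Under the alternatives 0 values reversed among 125 of Notch genes other than Heyl, 255 of the 17 pathway genes named by rule and 270 of 18 genes named after their values were seen. Heyl was tested without a filter alone (log2 fold change 3.20, adjusted p 0.256 by edgeR). The Dll1 call was lost in DESeq2 (log2 fold change 0.87), without a filter (0.86), at an adjusted p of 0.01 (0.86) and without 5 of the 6 libraries (0.80 to 0.92 over all leave-one-out fits). Hey1 was past the threshold without a filter (3.68). It was also tested on leaving out any control library or induced replicate 3 (3.14 to 4.52), but there it passed the filter only through the induced libraries, where it was high, so those fits add no support. Of the 17 genes Adam10 crossed the threshold, in 7 alternatives, and of the 18 genes Snai2, Eng, Mcam and Tnni3 crossed it, in 18 in all. The number of Notch genes called was 7 to 8, of the other pathway genes 40 to 51 and of all genes 7783 to 9765. With log2(FPKM + 1), the pseudocount shrinks low genes by construction, and Jag2 and Notch4 had log2 fold changes of 0.61 and -0.22.

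Same-numbered libraries did not deviate together (correlations -0.002, -0.015 and 0.027), and not every library correlated best with its own number. With the replicate block, 9063 genes, 8 Notch genes and 47 other pathway genes were called. Depth limits Hey1, Heyl and 12 of the 74 other pathway genes, which did not pass the filter.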
